A study of Mus musculus with 4 samples.

Results

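Interferon-stimulated genes are the genes that cells switch on when interferon binds its receptor. The transcript levels of 46 of them were examined in mouse kidney and heart after cecal ligation and puncture (CLP), with and without melatonin (MLT). The 46 genes were taken from a fixed list of symbols, with no threshold on their values, and all 46 were matched to 1 row each among the 55401 genes of the count files. CLP is an operation that lets gut bacteria leak into the abdomen and causes sepsis, and it was performed on the mice of all 4 groups. For the kidneys, the methods describe male C57BL/6 mice of 8 weeks. The CLP + MLT mice drank water with 25 μg/ml melatonin for 14 days before the operation, and kidneys were taken 24 h after it. For the heart groups, the sources used here give no dose, time or age.

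Each of the 4 groups (CLP kidney, CLP + MLT kidney, CLP heart and CLP + MLT heart) was 1 library, which may stand for 1 mouse or for a pool, since neither is stated. The labels of both CLP + MLT libraries carry a number, 4, whose meaning is not stated, so whether a kidney and a heart came from the same mouse is unknown. Melatonin, the mouse or pool and the library therefore cannot be told apart, no p-value was computed, and sham libraries were not analysed here. The comparison asks how the levels of these genes differed between septic mice that had received melatonin and those that had not. Between 15883057 and 22927905 reads were counted on genes per library, and these genes took between 0.0453% and 0.169% of them. Mitochondrial genes took 14.8% of the counts in the CLP kidney, 24.2% in the CLP + MLT kidney, 31.6% in the CLP heart and 36.0% in the CLP + MLT heart. Proximal and distal tubule markers in the hearts summed to 1.82% (CLP) and 2.78% (CLP + MLT) of their level in the kidneys, and cardiomyocyte markers in the kidneys to 0.0238% and 0.0563% of their level in the hearts, so the tissue labels matched the markers.

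Type I interferons signal through the receptor subunits IFNAR1 and IFNAR2 to a complex that holds STAT2 and IRF9 and binds a DNA element called the interferon-stimulated response element. Interferon gamma signals through IFNGR1 and IFNGR2 and acts on a different element, the gamma-activated site. The proteins made in response sense foreign nucleic acids, block virus replication, attack the membranes around intracellular microbes, raise antigen presentation and also damp the signal. In sepsis, bacterial products can set off the same response through Toll-like receptors and cytosolic sensors.

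The upstream sequences show how these genes can be grouped by such elements. RefSeq start sites on GRCm38.p6 gave 300-base windows, from 250 bases before to 50 bases after the start, for 33 of the 46 genes. The core of the response element was searched as GAAA, any 2 bases and GAAA again, and the core of the gamma-activated site as TTCNNNGAA, both on both strands. The response element core was found in 20 of the 33 genes (60.6%), against 3.99% of 27025 genes with a window. TTCNNNGAA was found in 10 of the 33 (30.3%), against 9.55% of all genes. Bst2, Gbp5, Gbp7, Igtp, Irgm2 and Oas1a held both, and 9 genes, among them Irf7, Cmpk2 and Oasl1, held neither in this window. A match describes letters only and does not show that a factor binds there.

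The 250 bases before the start are printed for 6 genes whose values recur below, with the motif in capitals: Isg15, Ifit1 and Gbp2 for the response element, Irf1 for the gamma-activated site, and the neighbours Igtp and Irgm2 for both. Isg15 lies at chr4:156200819-156201068 (minus strand), Ifit1 at chr19:34640639-34640888 (plus), Gbp2 at chr3:142620413-142620662 (plus), Irf1 at chr11:53769764-53770013 (plus), Igtp at chr11:58199306-58199555 (plus) and Irgm2 at chr11:58214727-58214976 (plus).
Isg15: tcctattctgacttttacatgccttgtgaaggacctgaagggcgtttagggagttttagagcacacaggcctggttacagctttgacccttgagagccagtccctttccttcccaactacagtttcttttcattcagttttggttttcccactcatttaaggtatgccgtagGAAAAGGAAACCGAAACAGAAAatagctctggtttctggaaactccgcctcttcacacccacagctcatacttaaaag
Ifit1: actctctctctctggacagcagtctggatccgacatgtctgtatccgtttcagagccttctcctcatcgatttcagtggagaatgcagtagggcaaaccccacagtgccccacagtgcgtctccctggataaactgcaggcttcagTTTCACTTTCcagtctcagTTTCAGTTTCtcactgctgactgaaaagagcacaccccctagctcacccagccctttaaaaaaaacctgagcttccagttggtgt
Gbp2: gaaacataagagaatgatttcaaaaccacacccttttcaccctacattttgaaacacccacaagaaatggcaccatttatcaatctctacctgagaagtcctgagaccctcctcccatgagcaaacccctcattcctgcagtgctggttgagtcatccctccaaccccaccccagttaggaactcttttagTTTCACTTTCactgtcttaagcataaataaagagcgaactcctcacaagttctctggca
Irf1: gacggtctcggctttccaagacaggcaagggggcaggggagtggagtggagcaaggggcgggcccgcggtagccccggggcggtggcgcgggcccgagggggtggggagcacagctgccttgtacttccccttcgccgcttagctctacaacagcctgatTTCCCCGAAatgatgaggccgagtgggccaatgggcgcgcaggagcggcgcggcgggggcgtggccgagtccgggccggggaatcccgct
Igtp: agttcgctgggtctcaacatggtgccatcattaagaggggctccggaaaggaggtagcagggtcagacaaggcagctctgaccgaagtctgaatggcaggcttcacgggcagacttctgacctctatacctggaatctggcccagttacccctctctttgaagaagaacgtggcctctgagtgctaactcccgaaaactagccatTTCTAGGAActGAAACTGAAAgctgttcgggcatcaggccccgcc
Irgm2: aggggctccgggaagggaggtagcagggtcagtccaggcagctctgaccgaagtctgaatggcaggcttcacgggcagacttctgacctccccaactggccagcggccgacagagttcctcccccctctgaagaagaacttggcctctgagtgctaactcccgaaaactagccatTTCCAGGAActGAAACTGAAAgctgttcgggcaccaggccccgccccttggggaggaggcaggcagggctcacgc
In Isg15 the matches started 78, 72 and 66 bases before the start and overlapped one another. The matches in Ifit1 (104 and 85 bases before the start) and Gbp2 (59) were on the opposite strand and so read TTTC, any 2 bases and TTTC. Irf1 held TTCNNNGAA 90 bases before the start and no response element core. Igtp and Irgm2 shared a run of 55 identical bases, and in each the gamma-activated core stood just before the response element core, at 45 and 34 bases before the start in Igtp and at 75 and 64 in Irgm2.

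In the kidney, most interferon-stimulated genes were lower in the CLP + MLT library than in the CLP library. A mean of 10 counts or more over both libraries was reached by 44 genes, of which 36 were lower and 8 higher, where 49.7% of all 16932 genes kept were lower. The median log2 ratio of CLP + MLT over CLP, scaled by the TMM method of edgeR, was −0.31, with quartiles of −0.48 and −0.05, against a median of 0.00 over all genes. The kidney genes at least 1.5-fold lower were Cmpk2, Gbp2, Ifih1, Ifit1, Irf7, Irgm2, Oasl1 and Zbp1, 8 of 44 (18.2%) against 11.6% of all genes, and 0 of 44 were at least 1.5-fold higher, against 11% of all genes. Summed over the 46 genes, the level went from 565 to 485 CPM (counts scaled to a common library size), a log2 ratio of −0.22 (95% exact Clopper-Pearson interval −0.26 to −0.18). These intervals cover counting error only, since copies made by PCR are not independent molecules, and the spread between mice is unknown.

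In the heart, the same genes lay on both sides of equality. Of 45 genes kept, 26 were lower and 19 higher in the CLP + MLT library, where 49.8% of all genes were lower, and the median log2 ratio was −0.02, or 0.03 when scaled by library size only. The quartiles were −0.15 and 0.21. Ifih1 was the 1 gene at least 1.5-fold higher (2.22%, against 10.9% of all genes), and Oasl1 and Mx1 were the 2 at least 1.5-fold lower (4.44%, against 12.6%). The summed level was 1659 CPM in the CLP heart and 1662 in the CLP + MLT heart, a log2 ratio of 0.00 (−0.02 to 0.03).

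**Figure D1:**
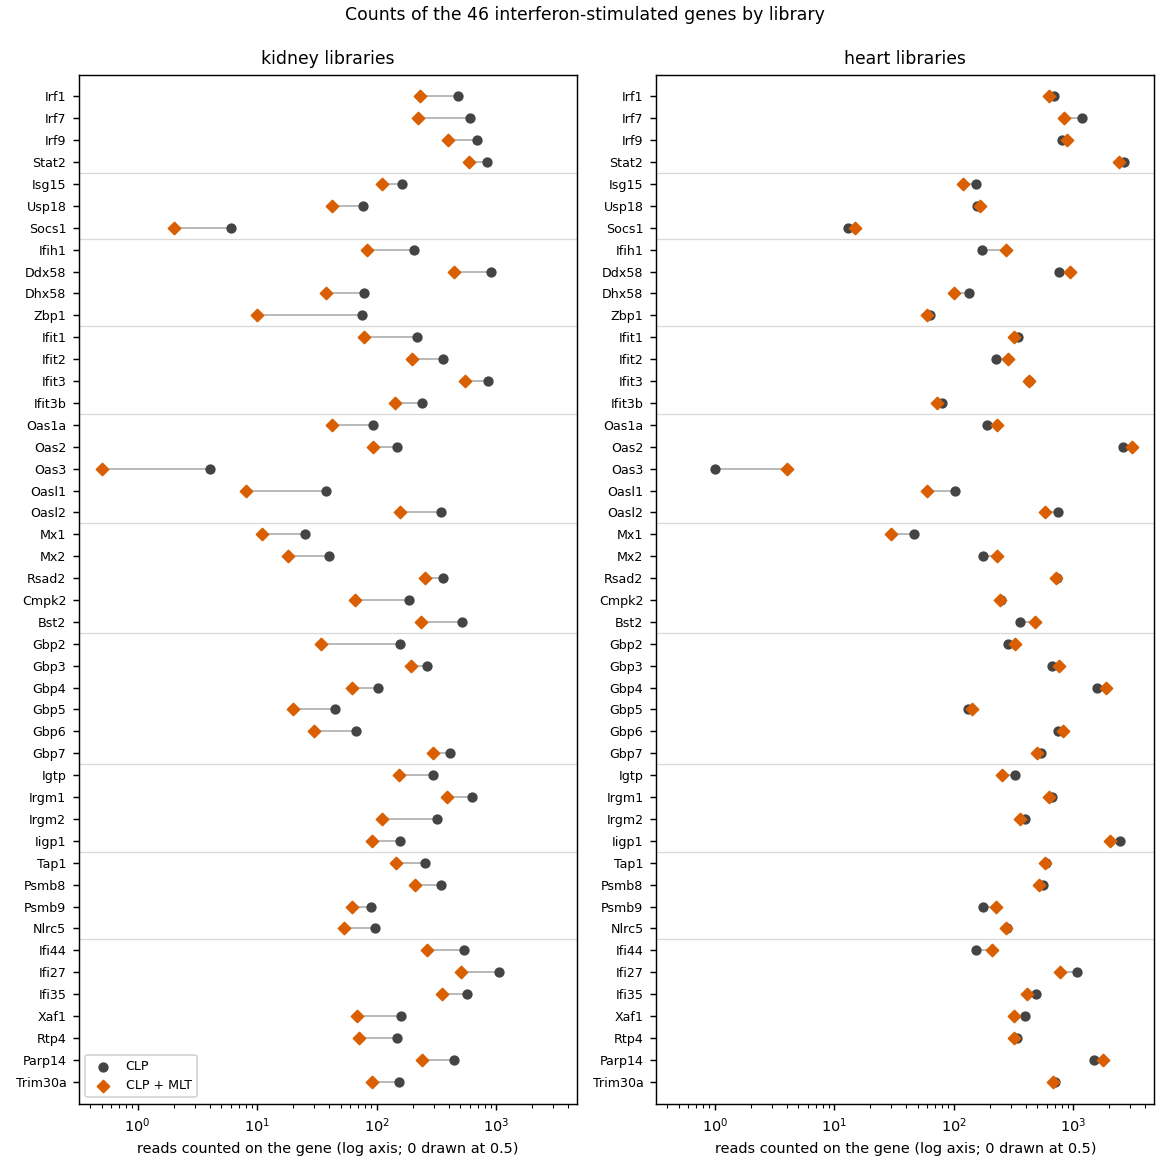
Reads counted on each of the 46 genes (log axis, with 0 drawn at 0.5) in the kidney libraries on the left and the heart libraries on the right, circles for CLP and diamonds for CLP + MLT, 1 library each, grouped by role. Raw kidney counts were lower in CLP + MLT for all 46 genes, where that library also had fewer counts in all (16474248 against 22927905), and heart counts of each pair lay close together.

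Counting error left a narrower set. In the kidney the interval lay wholly below a ratio of 1 for 15 of the 44 genes and wholly above it for Stat2 alone, against 25.6% and 26.2% of all genes. In the heart it lay below for 10 and above for 11 of 45, against 24.1% and 22.7%. Zbp1 and Gbp2 in the kidney were the genes whose interval lay wholly beyond 1.5-fold lower, 2 of 44 where 3.4% of all genes did so, with 0 of 44 wholly beyond 1.5-fold higher against 3.57%, and in the heart 0 of 45 lay wholly beyond 1.5-fold in either direction, against 2.89% higher and 4.45% lower. At the edge of the threshold in the kidney, Ifih1 (log2 −0.63) was the last inside and Xaf1 (−0.55) the first outside, and the highest gene, Gbp3, reached 0.22. Scaling by library size only moved every kidney log2 ratio by −0.20, which put the 7 higher genes other than Gbp3 below equality, and every heart log2 ratio by 0.06, which changed the sign of 5.

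The transcription factors carry the signal to the genes. Irf7, which amplifies type I interferon production, had 607 counts in the CLP kidney and 221 in the CLP + MLT kidney, a log2 ratio of −0.78 (−1.01 to −0.56). In the hearts the counts were 1170 and 833 (log2 −0.48, −0.61 to −0.35), so it was lower with melatonin in both tissues and passed 1.5-fold in the kidney. Irf1, an early target of interferon gamma, had 483 and 230 counts in the kidneys (−0.40, −0.63 to −0.17) and 693 and 622 in the hearts (−0.15, −0.30 to 0.01). Irf9, the DNA-binding part of the type I complex, had 696 and 396 counts in the kidneys (−0.14) and 811 and 886 in the hearts (0.14), and both intervals included equality. Stat2, its partner, went the other way from Irf7 in the kidney, with 835 and 591 counts (0.17, 0.02 to 0.33), a value that becomes −0.02 by library size only. In the hearts Stat2 had 2641 and 2410 counts (−0.12, −0.20 to −0.04).

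Isg15 encodes a ubiquitin-like protein and Usp18 the protease that removes it and also damps the receptor. Isg15 had 164 and 110 counts in the kidneys (0.10) and 152 and 119 in the hearts (−0.34, −0.70 to 0.01). Usp18 had 77 and 42 counts in the kidneys (−0.20) and 156 and 164 in the hearts (0.08). The intervals of both genes included equality in both tissues. Socs1, a feedback inhibitor of the receptor kinases, had 6 and 2 counts in the kidneys, below the filter, and 13 and 15 in the hearts.

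All 4 sensors of nucleic acids were lower in the CLP + MLT kidney, against 49.7% of all genes, with a summed log2 ratio of −0.46 (−0.61 to −0.32). In the heart their summed log2 ratio was 0.28 (0.17 to 0.40). Zbp1, a sensor of Z-form nucleic acid that can start necroptosis, is at chr2:173206612-173218923 (minus strand, GENCODE M21). It had 75 counts in the CLP kidney and 10 in the CLP + MLT kidney, 4.57-fold lower, with a log2 ratio of −2.19 (−3.35 to −1.28). In the hearts Zbp1 had 63 and 60 counts (−0.06, −0.60 to 0.47), so the CLP + MLT kidney alone was low among the 4 libraries. Ddx58, which encodes the RNA sensor RIG-I, had 912 and 448 counts in the kidneys (−0.35, −0.52 to −0.19) and 760 and 933 in the hearts (0.31, 0.17 to 0.45). Dhx58, a regulator of that sensor, had 78 and 38 counts in the kidneys (−0.36, −0.96 to 0.21) and 135 and 100 in the hearts (−0.42, −0.81 to −0.04).

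Ifih1 encodes MDA5, a sensor of long double-stranded RNA, and is at chr2:62595798-62646255 (minus strand). It had 205 and 83 counts in the kidneys, a log2 ratio of −0.63 (−1.02 to −0.26). In the hearts the counts were 173 and 272 (0.66, 0.38 to 0.95). It was thus 1.55-fold lower in the CLP + MLT kidney and 1.58-fold higher in the CLP + MLT heart. Ifih1 was the single gene of the 44 kept in both tissues that was at least 1.5-fold lower in kidney and higher in heart, against 1.36% of all genes.

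**Figure D2:**
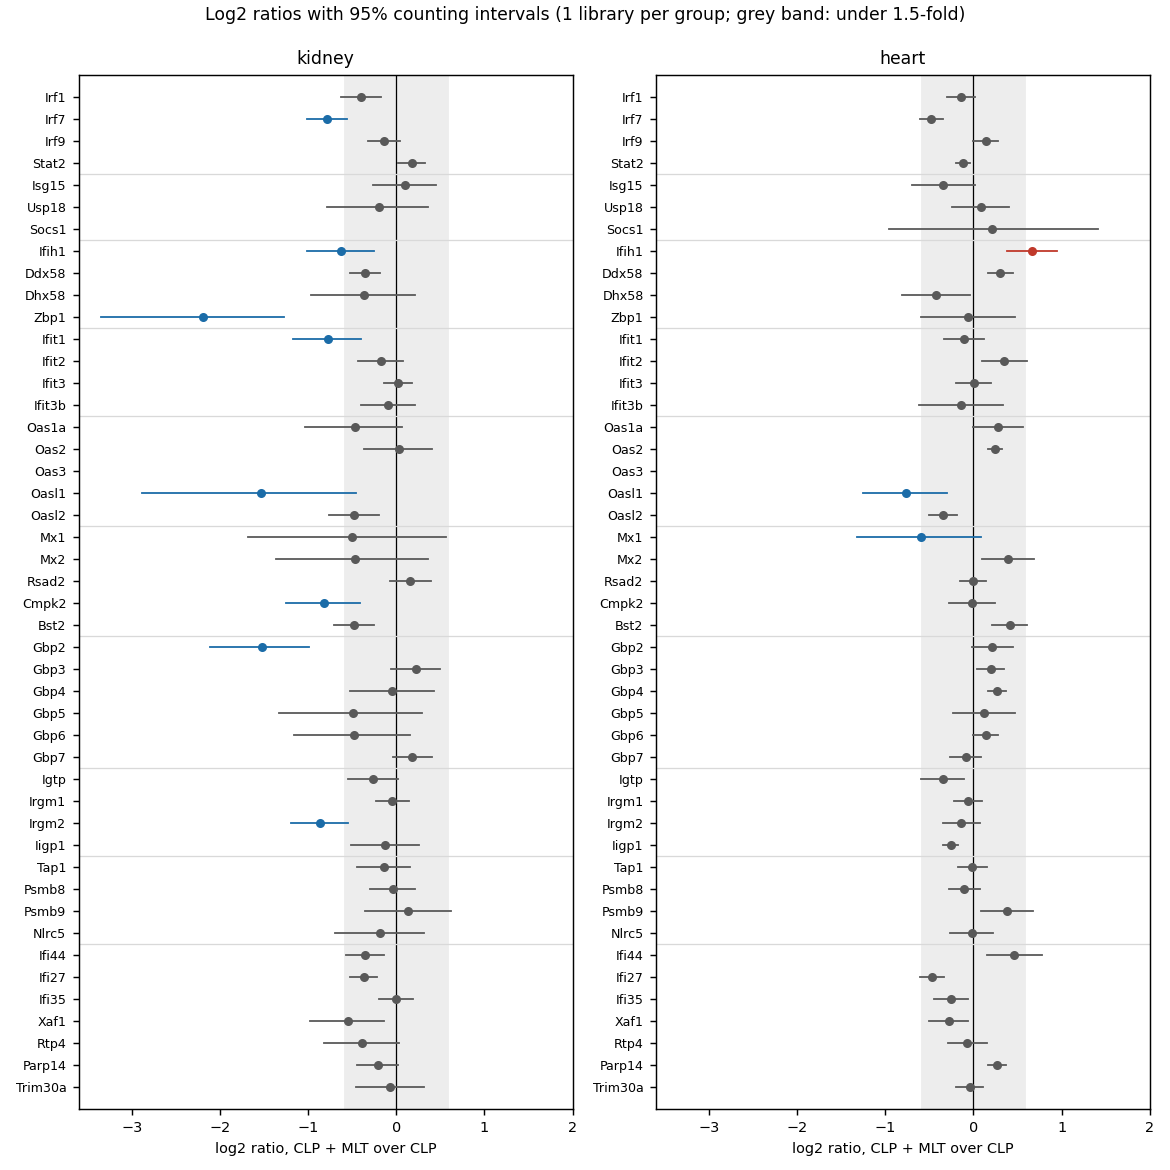
Log2 ratio of CLP + MLT over CLP for each gene in kidney (left) and heart (right), with bars for the 95% counting interval and 1 library per group. Blue points are at least 1.5-fold lower, the red point (Ifih1 in heart, 0.66) at least 1.5-fold higher, the grey band is under 1.5-fold, and genes with a mean under 10 counts have no point. Zbp1 (−2.19), Oasl1 (−1.53) and Gbp2 (−1.52) lie farthest from 0 in the kidney.

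The IFIT proteins bind foreign RNA, and their 4 genes lie next to one another on chromosome 19. Ifit1 had 216 and 79 counts in the kidneys, a log2 ratio of −0.78 (−1.17 to −0.40), and 347 and 320 in the hearts (−0.11). Ifit3 had 854 and 545 counts in the kidneys (0.02, −0.13 to 0.18) and 424 and 422 in the hearts (0.00). Genes of this group therefore differed: the kidney interval of Ifit1 lay below that of Ifit3. Ifit2 had 359 and 199 counts in the kidneys (−0.18) and 225 and 285 in the hearts (0.35, 0.09 to 0.61), and Ifit3b had 241 and 142 (−0.09) and 80 and 72 (−0.14). Ifit3 and Ifit3b are near-identical copies, so the division of reads between them is uncertain.

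The OAS genes encode enzymes that make the messenger of the RNase L pathway, and the OASL proteins are related to them. Oasl1 (chr5:114923240-114937915, plus strand), which limits translation of Irf7, had 38 and 8 counts in the kidneys, a log2 ratio of −1.53 (−2.89 to −0.45). In the hearts the counts were 103 and 60 (−0.76, −1.25 to −0.30). Oasl1 was the 1 gene of 44 at least 1.5-fold lower in both tissues, against 1.67% of all genes. Oasl2, beside it on chromosome 5, had 346 and 156 counts in the kidneys (−0.48, −0.76 to −0.20) and 738 and 578 in the hearts (−0.34, −0.50 to −0.18). Oas2 had 147 and 94 counts in the kidneys (0.03, −0.17 by library size only) and 2617 and 3079 in the hearts (0.24, 0.17 to 0.32). Oas1a, which has close copies in the mouse genome, had 93 and 42 (−0.47, −1.04 to 0.07) and 189 and 228 (0.28, 0.00 to 0.57). Oas3 was close to absent at this depth, with 4 and 0 counts in the kidneys and 1 and 4 in the hearts, where 3 counts correspond to between 0.122 and 0.195 CPM.

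Among the other antiviral effectors, Cmpk2 and Rsad2 are neighbours on chromosome 12 that are often induced together. Cmpk2, a mitochondrial nucleotide kinase, had 186 and 66 counts in the kidneys, a log2 ratio of −0.82 (−1.25 to −0.41). Rsad2, which encodes viperin, had 362 and 254 counts there (0.16, −0.08 to 0.40), a value that is −0.03 by library size only. Their intervals did not overlap in the kidney. In the hearts Cmpk2 had 246 and 241 counts (−0.02) and Rsad2 had 729 and 721 (−0.01). Bst2, which encodes tetherin, a protein that holds virus particles at the cell surface, had 521 and 235 counts in the kidneys (−0.48, −0.71 to −0.25) and 360 and 475 in the hearts (0.41, 0.21 to 0.61), with intervals on opposite sides of equality. Mx1, a dynamin-like GTPase, had 25 and 11 counts in the kidneys (−0.50, −1.68 to 0.56) and 46 and 30 in the hearts (−0.60, −1.32 to 0.09). Mx2, annotated as a polymorphic pseudogene, had 40 and 18 counts in the kidneys (−0.47, −1.37 to 0.36) and 176 and 229 in the hearts (0.39, 0.10 to 0.68).

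The guanylate-binding proteins attack the membranes of vacuoles that hold microbes and respond strongly to interferon gamma. Gbp2 (chr3:142620602-142638008, plus strand) had 157 counts in the CLP kidney and 34 in the CLP + MLT kidney, 2.88-fold lower, with a log2 ratio of −1.52 (−2.12 to −0.99). In the hearts it had 284 and 327 counts (0.21, −0.02 to 0.45). Of the other genes of the cluster on chromosome 3, Gbp3 had 264 and 193 counts in the kidneys (0.22, −0.05 to 0.49, or 0.02 by library size only) and Gbp7 had 414 and 295 (0.18, −0.04 to 0.40), with intervals above that of Gbp2. Gbp5 had 45 and 20 (−0.49, −1.34 to 0.29), an interval that overlapped that of Gbp2. In the hearts, Gbp3 had 666 and 757 counts (0.19), Gbp7 had 535 and 500 (−0.09), and Gbp5 had 132 and 142 (0.11). Gbp4 and Gbp6, on chromosome 5, belong to a family of near-identical copies and their counts are uncertain. Gbp4 had 102 and 62 counts in the kidneys (−0.05) and 1564 and 1870 in the hearts (0.27, 0.17 to 0.37), and Gbp6 had 67 and 30 (−0.48) and 750 and 819 (0.14). Summed over these 6 genes, the log2 ratio was −0.05 (−0.20 to 0.09) in the kidney and 0.18 (0.12 to 0.24) in the heart.

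The immunity-related GTPases act with them on the same vacuoles. Irgm2 had 320 and 110 counts in the kidneys, a log2 ratio of −0.87 (−1.19 to −0.55), and 393 and 355 in the hearts (−0.14, −0.35 to 0.07). Igtp, its neighbour with the shared run of upstream sequence printed above, had 294 and 154 in the kidneys (−0.26, −0.55 to 0.02) and 322 and 251 in the hearts (−0.35, −0.59 to −0.11). Irgm2 is annotated over most of Igtp on the same strand and shares exon sequence with it, so reads on the shared part cannot be assigned to either. Irgm1, on another part of chromosome 11, had 632 and 385 counts in the kidneys (−0.04) and 660 and 628 in the hearts (−0.06). Iigp1 had 158 and 91 (−0.12) and 2446 and 2030 (−0.26, −0.35 to −0.17). All 4 of these genes were lower in both tissues, against 25.3% of all genes kept in both. The summed log2 ratio of the 4 was −0.25 (−0.38 to −0.12) in the kidney and −0.22 (−0.29 to −0.15) in the heart.

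The genes for antigen processing had kidney log2 ratios from −0.18 to 0.13. Psmb8 and Psmb9 encode subunits of the immunoproteasome, Tap1 a subunit of the peptide transporter and Nlrc5 the activator of class I genes. Psmb9 had 90 and 62 counts in the kidneys (0.13, −0.36 to 0.62; −0.06 by library size only) and 174 and 225 in the hearts (0.38, 0.09 to 0.67). Psmb8 had 343 and 209 (−0.04) and 559 and 516 (−0.11). Nlrc5 had 96 and 53 (−0.18) and 281 and 275 (−0.02), and Tap1 had 256 and 146 (−0.14) and 586 and 577 (−0.01). Tap1 and Psmb9 overlap on opposite strands.

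The remaining 7 induced genes were each lower in the CLP + MLT kidney, where 49.7% of all genes were lower. The 7 log2 ratios ran from −0.55 to −0.0035, the latter for Ifi35, which is 0.02 when scaled by the upper quartile. Xaf1, linked to cell death, had 161 and 69 counts in the kidneys (−0.55, −0.98 to −0.14) and 393 and 321 in the hearts (−0.28, −0.50 to −0.07). Ifi27 had 1052 and 512 (−0.37, −0.52 to −0.21) and 1075 and 771 (−0.47, −0.60 to −0.34), lower in both tissues. Ifi44 had 534 and 262 (−0.35, −0.57 to −0.14) and 152 and 208 (0.46, 0.15 to 0.77), on opposite sides of equality. Ifi35 had 567 and 355 (−0.20 to 0.19 as the interval) in the kidneys and 489 and 406 (−0.26, −0.45 to −0.07) in the hearts. Rtp4, Parp14 and Trim30a had kidney log2 ratios of −0.39, −0.21 and −0.07 and heart log2 ratios of −0.07, 0.26 and −0.04.

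The tissues were next set side by side. Of the 44 genes kept in both, 22 were lower with melatonin in both, 4 higher in both, 14 lower in kidney and higher in heart, and 4 the reverse. Over all genes kept in both, these shares were 25.3%, 25.7%, 24.3% and 24.6%. The heart log2 ratio minus the kidney log2 ratio had a median of 0.26, against −0.01 over all 14592 genes kept in both, and was above 0 for 29 of 44, against 49.3% of all genes. The counting interval of this difference lay wholly above 0 for 15 genes, against 23.8% of all genes, and wholly below 0 for Stat2 alone, against 25.2%. The intervals of this difference are normal approximations. The largest differences whose intervals excluded 0 were those of Zbp1 (2.13, 1.05 to 3.21), Gbp2 (1.74, 1.15 to 2.32) and Ifih1 (1.29, 0.83 to 1.75). Across the 44 genes the ratios in the tissues had a Pearson correlation of 0.16 and a Spearman correlation of 0.13, against a Pearson correlation of 0.08 over all genes, as a description over genes that are not independent. Genes known mainly as type I targets had a median log2 ratio of −0.36 in the kidney (30 genes, 29 kept). Those known to lean on interferon gamma had −0.14 (16 genes, 15 kept). The summed kidney log2 ratios of these groups were −0.24 (−0.29 to −0.19) and −0.17 (−0.25 to −0.09), with overlapping intervals. In the heart the medians were −0.04 and −0.02, both within the shift of 0.06 that scaling by library size only gives.

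**Figure D3:**
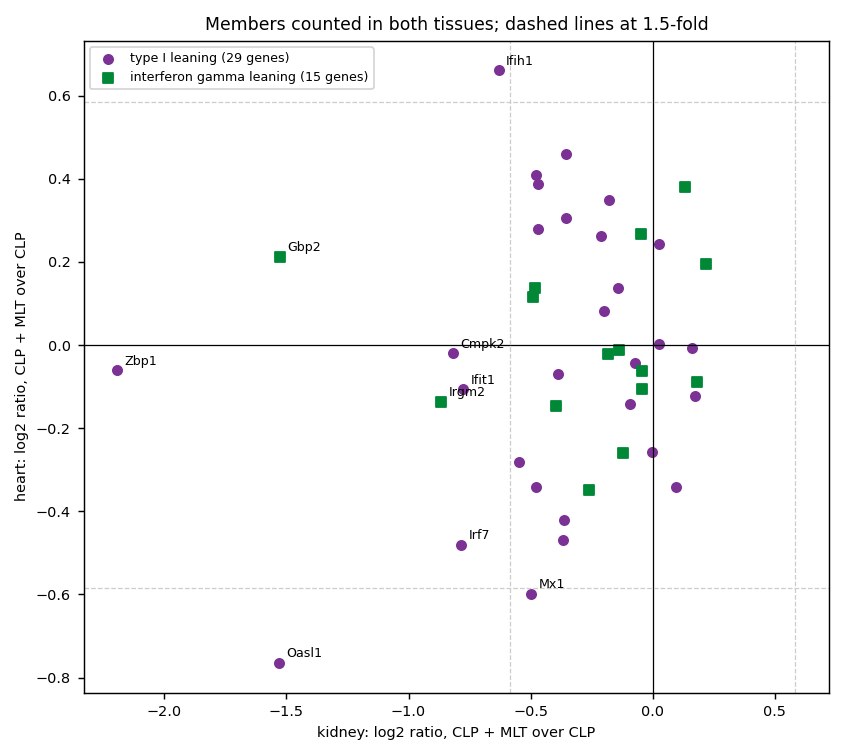
Kidney log2 ratio (horizontal) against heart log2 ratio (vertical) of CLP + MLT over CLP for the 44 genes kept in both tissues, 29 type I leaning (circles) and 15 interferon gamma leaning (squares), with dashed lines at 1.5-fold. Most points lie left of 0, 22 in the lower left and 14 in the upper left, with Oasl1 alone beyond both lines in the lower left and Ifih1 alone in the upper left.

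Levels within a treatment also differed between the tissues: the genes were more abundant in septic heart than in septic kidney. Scaled over the 4 libraries by TMM, 39 of 44 genes (88.6%) were at least 1.5-fold higher in the CLP heart than in the CLP kidney, against 33.5% of all genes. By library size only, 32 of 44 were, against 4339 of all 17419 genes. The median by TMM was 3.35-fold higher. Oas2 was 32.9-fold, Iigp1 28.6-fold, Gbp4 28.3-fold and Gbp6 20.6-fold higher in the heart, 4 genes (9.09%) beyond 10-fold against 6.24% of all genes. Ifi44 and Ifit3b were the 2 genes at least 1.5-fold lower there, with log2 ratios of heart over kidney of −0.92 and −0.70, against 37.3% of all genes. In the CLP + MLT libraries again 39 of 44 were at least 1.5-fold higher in heart, against 34.7% of all genes, with a median of 4.44-fold, and Ifit3b alone was lower, against 36.4%. There 6 genes (13.6%) were beyond 10-fold, against 6.45% of all genes. Endothelial markers had a median 6.94-fold higher in the CLP heart than in the CLP kidney, macrophage markers 2.71-fold and general leukocyte markers 2.05-fold, and their part in this result was not tested. In these bulk tissues fewer cells of a type and less RNA per cell cannot be told apart.

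**Figure D4:**
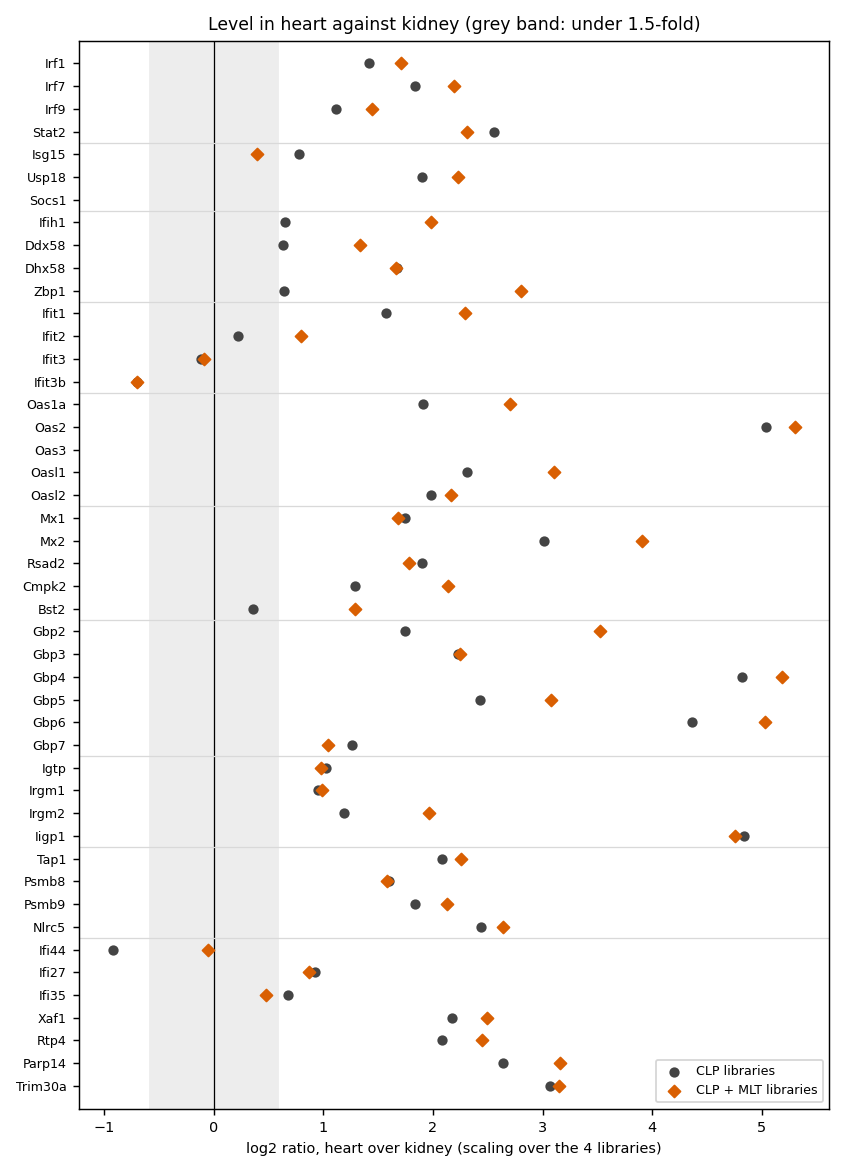
Log2 ratio of heart over kidney for each gene in the CLP libraries (circles) and in the CLP + MLT libraries (diamonds), 1 library per group, scaled over the 4 libraries, with the grey band under 1.5-fold. In the CLP libraries 39 of 44 points lie right of the band, and Oas2, Iigp1, Gbp4 and Gbp6 lie beyond 10-fold.

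Per kilobase of exon (RPKM), Ifi27 was the most abundant of the genes in both CLP libraries, at 26.1 in kidney and 49.5 in heart. Bst2 and Ifit3 (17.8) came next in the CLP kidney, and Oas2 (39.7) and Stat2 (30.1) in the CLP heart.

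The rest of the pathway was read from lists of general knowledge. Of the 21 interferon genes listed, 16 had 0 counts in all 4 libraries, among them Ifnb1, the gene of interferon beta, and 0 of 21 reached a mean of 10 counts in either tissue. Ifng and Ifna6 had 1 read each in the CLP kidney, Ifnk and Ifnz 2 each in the CLP + MLT kidney, and Ifnab 7 and 4 in the hearts. Apart from Ifnab in the hearts, these counts lay within 3 counts a library, the limit that a count of 0 allows. Reads that did not align uniquely, from 23.6% (CLP kidney) to 38.6% (CLP heart) of the sum of a library, were not counted on genes. A count of 0 therefore does not show that a transcript was absent.

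The receptors were measured well. In the kidneys, Ifngr2 had 459 and 184 counts (−0.65, −0.90 to −0.40) and Ifngr1 had 967 and 434 (−0.48, −0.65 to −0.32), so both chains for interferon gamma were lower with melatonin. The type I chains were nearer to equality there, Ifnar1 with 860 and 588 counts (0.12, −0.03 to 0.28) and Ifnar2 with 384 and 206 (−0.23, −0.48 to 0.02). In the hearts, Ifngr2 had 436 and 460 counts (0.09), Ifngr1 had 891 and 1004 (0.18, 0.05 to 0.31), Ifnar1 had 988 and 992 (0.02) and Ifnar2 had 473 and 552 (0.23, 0.05 to 0.41). Ifnlr1, the chain for interferon lambda, had 180 and 99 counts in the kidneys (−0.19) and 195 and 178 in the hearts (−0.12). Il10rb, which it shares with interleukin 10, had 648 and 388 in the kidneys (−0.07) and 516 and 736 in the hearts (0.52, 0.36 to 0.69).

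Of the 55 listed genes of interferons, receptors, kinases, sensors, adaptors and inhibitors, 31 were kept in the kidney, and 6 of these were at least 1.5-fold lower (19.4%, against 11.6% of all genes) and 0 higher (against 11%) in CLP + MLT. In the heart 32 were kept, 2 at least 1.5-fold higher (against 10.9% of all genes) and 1 lower (against 12.6%). Tlr4, the receptor for bacterial lipopolysaccharide, was low in both tissues with melatonin, with 64 and 17 counts in the kidneys (−1.22, −2.11 to −0.45) and 94 and 60 in the hearts (−0.63, −1.13 to −0.16). Socs3, a feedback inhibitor of cytokine receptors, had 376 and 102 counts in the kidneys (−1.21, −1.54 to −0.89) and 574 and 533 in the hearts (−0.10, −0.27 to 0.08). Ticam2, an adaptor of TLR4, had 0 counts in both CLP libraries, 7 in the CLP + MLT kidney and 28 in the CLP + MLT heart, where it was at least 9.40-fold higher against a floor of 3 counts per library.

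Beyond the 46, 74 further interferon-induced genes were listed from general knowledge. In the kidney 67 were kept, with a median log2 ratio of −0.11, and 8 were at least 1.5-fold lower (11.9%), a share near the 11.6% of all genes, and 1 higher (1.49%, against 11%). Cxcl10, a chemokine for T cells and a widely used marker of the response, had 215 and 35 counts in the kidneys, the lowest log2 ratio of that list at −1.94 (−2.51 to −1.43), and 5 and 2 in the hearts. Epsti1 was the 1 gene higher, with 48 and 58 counts (0.94, 0.37 to 1.53), followed by Gm4951 (11 and 10, 0.51, −0.86 to 1.91) and Phf11b (37 and 33, 0.50, −0.22 to 1.22), whose intervals included equality. The kidney median was −0.03 for the type I targets among the 74 (43 kept). It was −0.22 for those leaning on interferon gamma (24 kept), the reverse of the order among the 46.

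In the heart 66 of the 74 were kept, with a median log2 ratio of −0.01, and 11 were at least 1.5-fold higher (16.7%, against 10.9% of all genes) and 2 lower (3.03%, against 12.6%). Of the 11, 8 were among the 26 kept that had been listed as leaning on interferon gamma (30.8%, against 10.9% of all genes). The other 3 were among the 40 kept type I targets (7.5%). The median log2 ratios of these lists were 0.09 and −0.04. H2-Eb1, a class II chain, had 16 and 73 counts (2.16, 1.41 to 3.08), and Cxcl9, a chemokine, had 16 and 62 (1.93, 1.15 to 2.86). The class II chain H2-Ab1 did not follow, with 71 and 49 counts (−0.52, −1.08 to 0.02), and is named here after its value was seen. Ifi27l2a had 1178 and 537 counts, the lowest log2 ratio at −1.12 (−1.27 to −0.98), and Psme2, a proteasome activator, had 724 and 475 (−0.60, −0.77 to −0.43).

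Markers of other cells moved between the libraries of a tissue as well. In the kidney, 7 of 8 general leukocyte markers were higher in CLP + MLT, where 49.7% of all genes kept were lower. The summed level of these markers went from 75.2 to 111 CPM (log2 0.56). Macrophage and monocyte markers were higher for 9 of 10 kept and went from 139 to 260 (0.91), while their median log2 ratio was 0.32. Of the 10, 3 were at least 1.5-fold higher, against 11% of all genes. The interferon-stimulated genes had the opposite direction there, with a summed log2 ratio of −0.22. Endothelial markers were lower for 7 of 8, against 49.7% of all genes, and went from 287 to 237 (−0.27). Tubule markers went from 25854 to 37401 (0.53). Neutrophil markers went from 20.8 to 16.5 (−0.34), with 3 of 5 kept lower, against 49.7% of all genes, and Ly6g at 0 in all libraries. B cell markers rested on few reads, 36 and 113 counts, with Ms4a1 at 0, and T and NK markers summed to 2.93 and 2.92 CPM. Siglech, which marks the plasmacytoid dendritic cells that make much type I interferon, had 0 counts in all 4 libraries.

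In the heart, general leukocyte markers went from 91.4 to 134 CPM (0.55) and macrophage markers from 277 to 318 (0.20). However, 6 of the 11 macrophage markers were lower, against 49.8% of all genes, and the median log2 ratio of the 11 was −0.03. Endothelial markers went from 1438 to 1601 (0.15) and tubule markers from 381 to 816 (1.10). Cardiomyocyte markers went from 32550 to 21607 (−0.59), fibroblast markers from 613 to 485 (−0.34) and neutrophil markers from 54.2 to 41.3 (−0.39). Lower were 6 of 8 cardiomyocyte, 6 of 7 fibroblast and 4 of 6 neutrophil markers kept, against 49.8% of all genes. The cardiomyocyte log2 ratios ran from −1.46 to 0.94. The part of any of these cells in the results for the interferon-stimulated genes was not tested.

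**Figure D5:**
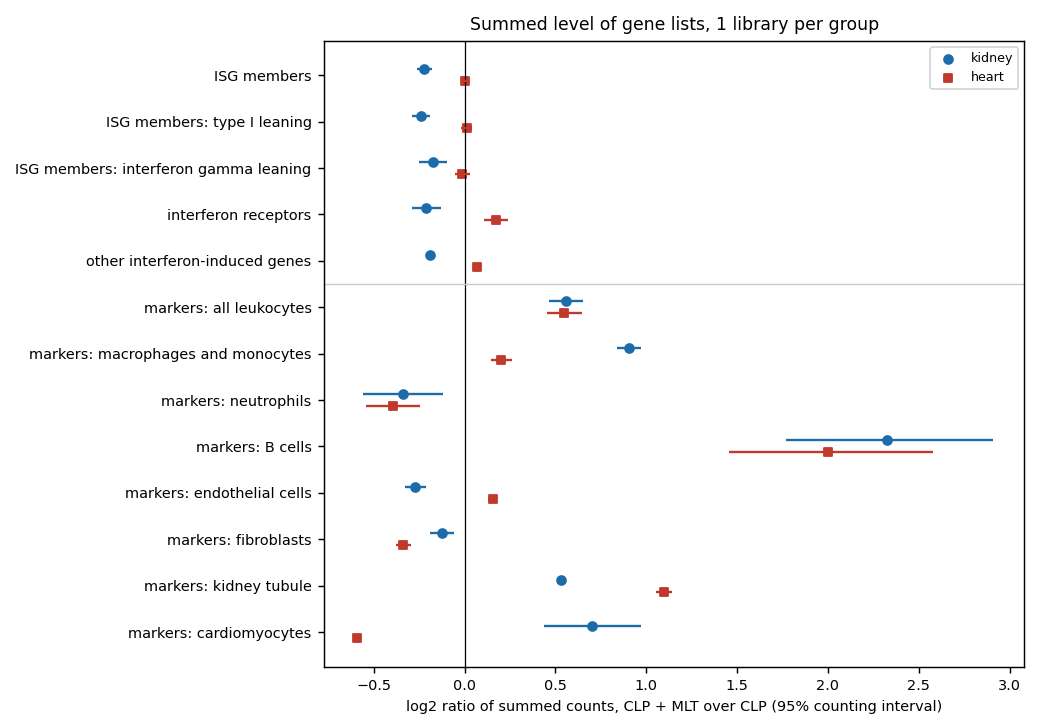
Log2 ratio of summed counts, CLP + MLT over CLP, for gene lists in kidney (circles) and heart (squares), 1 library per group, with bars for the 95% counting interval. In the kidney the interferon-stimulated genes (−0.22) and receptors (−0.21) lie below 0 while leukocyte (0.56) and macrophage (0.91) markers lie above, and in the heart the interferon-stimulated genes lie at 0.00.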

How the data were processed

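RNA-seq counts of 4 mouse libraries, 1 per group, were analysed. The authors deposited 1 file of raw, unnormalized read counts per gene and library. Per the submitters' processing notes, reads were aligned to mm10 with HISAT2 2.1.0 and counted with HTSeq. Neither the strand setting nor the annotation is given in these sources, so reads of genes that overlap on opposite strands cannot be told apart, and 19 of the 46 genes have exons that overlap another gene. The 5 totals at the end of each file, between 65.5% and 72.8% of its sum, were left out.

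Names came from GENCODE M21 (55141 of 55401 identifiers). TMM factors were computed within each tissue with edgeR 4.0.16 in R 4.3.3 (DESeq2 1.42.0 size factors as an alternative), and the rest in Python 3.11.15 (scipy 1.17.1, pandas 2.3.3, numpy 2.4.6). Genes were kept in a tissue at a mean of 10 counts or more, and log2 ratios used a prior count of 0.5. With no replicates there is no p-value. A gene was counted at 1.5-fold, read beside the share of all genes. Intervals of ratios within a tissue are 95% exact Clopper-Pearson intervals, for counting error only. Those of the heart minus kidney difference are 95% normal approximations from the same counts, also for counting error only. The steps were tested on simulated counts that held counting error only, so the spread between mice was not part of that test.

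The genes, lists, rules and alternatives were chosen with earlier results of these data known. Named were the highest and lowest gene of each role in each tissue, the transcription factors, sensors, inhibitors and receptors, interferons with any count, genes past 1.5-fold in both tissues, and from the pathway and other induced lists together the 3 highest and 3 lowest per tissue with a mean of at least 10 counts. Other members were added so that all 46 have values. The heart over kidney levels were chosen after seeing the data. Alternatives were library size, DESeq2 or upper quartile scaling, a prior count of 5, no count filter or one at a mean of 50, a 2-fold threshold, intervals wholly beyond 1.5-fold, leaving out mitochondrial and haemoglobin genes, removing the trend on exon length, and, added after seeing the data, leaving out genes with exon overlap. The values of some listed genes are not reported here.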

Additional observations from a re-analysis of the deposited data

Results flagged for a closer look

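Ifih1, which encodes the RNA sensor MDA5, stood at least 1.5-fold from equality in opposite directions in the tissues, with a log2 ratio of CLP + MLT over CLP of −0.63 (205 and 83 counts) in the kidney and 0.66 (173 and 272 counts) in the heart. Ifih1 was the 1 gene of the 44 kept in both tissues that was lower in kidney and higher in heart at this fold, against 1.36% of all genes. The heart value minus the kidney value was 1.29, with a counting interval, by a normal approximation, of 0.83 to 1.75. With 1 library per group the difference between the tissues was not tested against the spread between mice.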

How the results depend on the processing

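The kidney count of 8 of 44 genes at least 1.5-fold lower became 17 of 44 when scaled by library size only. That scaling moved the log2 ratio of every kidney gene, listed or not, by −0.20. The count became 4 of the 25 kept without genes that overlap another gene's exons (chosen after seeing the data). At 2-fold it became 3, and with the interval wholly beyond 1.5-fold 2, against 3.4% of all genes. Apart from this interval rule, the share of all genes was not counted under the alternatives in either tissue. The changed counts therefore have no background to be read against. The kidney median of −0.31 became −0.50 by library size only, where the median of all genes was −0.19. The kidney median became −0.35 with no filter (46 genes), −0.19 at a mean of at least 50 counts (38 genes) and −0.35 without overlapping genes (25 genes). In the heart, the 2 lower genes of 45 became 1 by library size only, by the upper quartile and with a prior count of 5. They became 1 of 43 at a mean of at least 50 counts and 1 of 26 without overlapping genes. At 2-fold or with the interval wholly beyond 1.5-fold they became 0. The 1 higher gene in the heart became 2 with no filter and 0 under each of the last 2 rules, and the median of −0.02 became 0.03 both by library size only (0.034) and by the upper quartile (0.027). Single genes moved beyond their counting interval in 6 of 89 values by library size only and in 1 of 89 when the length trend was removed. Scaling by library size only added the same −0.20 to every kidney log2 ratio and the same 0.06 to every heart log2 ratio. The upper quartile added 0.05 to every heart log2 ratio. The kidney median minus that of all genes stayed at −0.31 by library size only. The stricter rules count fewer genes by construction, and the cause of the other shifts was not tested. No paired analysis was possible because each group has 1 library and the CLP labels carry no number to match the one in the CLP + MLT labels, and with 1 library per group no replicate could be left out.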
